A study of Mus musculus with 8 samples.

Results

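The phase II conjugation enzymes of the mouse liver were taken as every protein-coding gene whose symbol starts with Gst, Ugt or Sult, without Gstz1 and Gstcd. The rule found 64 genes of 21951 protein-coding genes in the annotation. They were 21 glutathione transferases (Gst), 22 UDP-glucuronosyltransferases (Ugt) and 21 sulfotransferases (Sult). RNA was sequenced in 8 libraries that formed 4 groups of 2. The groups were endoplasmic reticulum purified from Cpeb4 KO livers, total RNA of Cpeb4 KO livers, endoplasmic reticulum from wild-type livers and total RNA of wild-type livers. The reticulum came from mice fasted overnight. The labels give no age, sex or strain, no feeding state for the total-liver mice, and no word on whether the knockout was limited to one cell type. Cpeb4 encodes an RNA-binding protein that regulates polyadenylation and translation of its target mRNAs.

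The values are those of 2 deposited tables of knockout against wild-type fold changes, with 1 mean per gene over both genotypes and no value per library. The smaller table held 21201 genes and the larger one 23634. Neither names its preparation, so neither was assigned to reticulum or total liver. A negative log2 fold change was read as lower in the knockout because of Cpeb4 itself. Cpeb4 had a log2 fold change of -1.10 ± 0.13 in the smaller and -1.16 ± 0.11 in the larger of the authors' deposited tables (SE, adjusted p = 2.30e-12 and 3.18e-24). Every fold change below is the authors' moderated DESeq2 estimate on the log2 scale, knockout over wild type, with its standard error. Moderation draws estimates towards 0, most of all for genes with few reads. A gene was called where the authors' adjusted p was under 0.05 (Wald test, Benjamini-Hochberg).

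Phase II enzymes join a polar group to drugs, hormones, bile pigments and reactive products, so that these can leave the cell. Glutathione transferases are mostly cytosolic and add glutathione to electrophiles. UDP-glucuronosyltransferases are anchored in the endoplasmic reticulum membrane with the active site in its lumen, and add glucuronic acid. Sulfotransferases of the Sult family are cytosolic and add sulfate from the donor PAPS to steroids, bile acids, phenols and amines.

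Of the 64 genes, 51 had a row in at least 1 table, which is 46 in the smaller and 50 in the larger. The authors gave an adjusted p to 33 genes in the smaller and 35 in the larger table, and these are called tested here. All 33 were also among the 35. By family, 17 and 18 Gst genes, 9 and 10 Ugt genes and 7 and 7 Sult genes were tested in the smaller and the larger table. A further 16 genes had a row but were tested in neither table, with no mean above 15.6 normalised counts. They were Gstt4, Ugt1a7c, Ugt2a1, Ugt8a and 12 sulfotransferases. The other 13 genes had no row, so their levels and fold changes are unknown here. They were Gsto1, Gsto2, Sult5a1, Sult6b2, Ugt2a2 and 8 of the 9 Ugt1a genes, among them Ugt1a1, the bilirubin-conjugating enzyme.

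A few genes in each family held most of its level per kilobase of exon, summed over the genes with a row. On the scale of mean normalised count per kilobase of annotated exon, over both genotypes, Gstp1 stood highest among the transferases in both of the authors' deposited tables, at 68756 in the smaller and 47687 in the larger. Gstp1 and its neighbour Gstp2 encode the pi-class enzymes, and Gstm1 the main mu-class enzyme of mouse liver. Together these 3 genes held 84.7% and 84.6% of the summed Gst level per kilobase in the deposited tables. Among sulfotransferases, Sult1a1, which sulfates phenols, led at 27877 and 13991 per kilobase in the deposited tables. Sult2a8, which sulfates bile acids in mouse liver, and Sult1d1, which acts on catecholamines, came next. These 3 held 97.8% and 97.4% of the summed Sult level. The Ugt genes with a row were spread more evenly, and the shares leave out the Ugt1a genes that had none. The 3 highest Ugt genes held 60.3% and 51.6% of the level summed over Ugt genes with a row. They were Ugt2b36, Ugt2b5 and Ugt2a3 in the smaller table and Ugt2b5, Ugt2b36 and Ugt3a2 in the larger one.

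**Figure D1:**
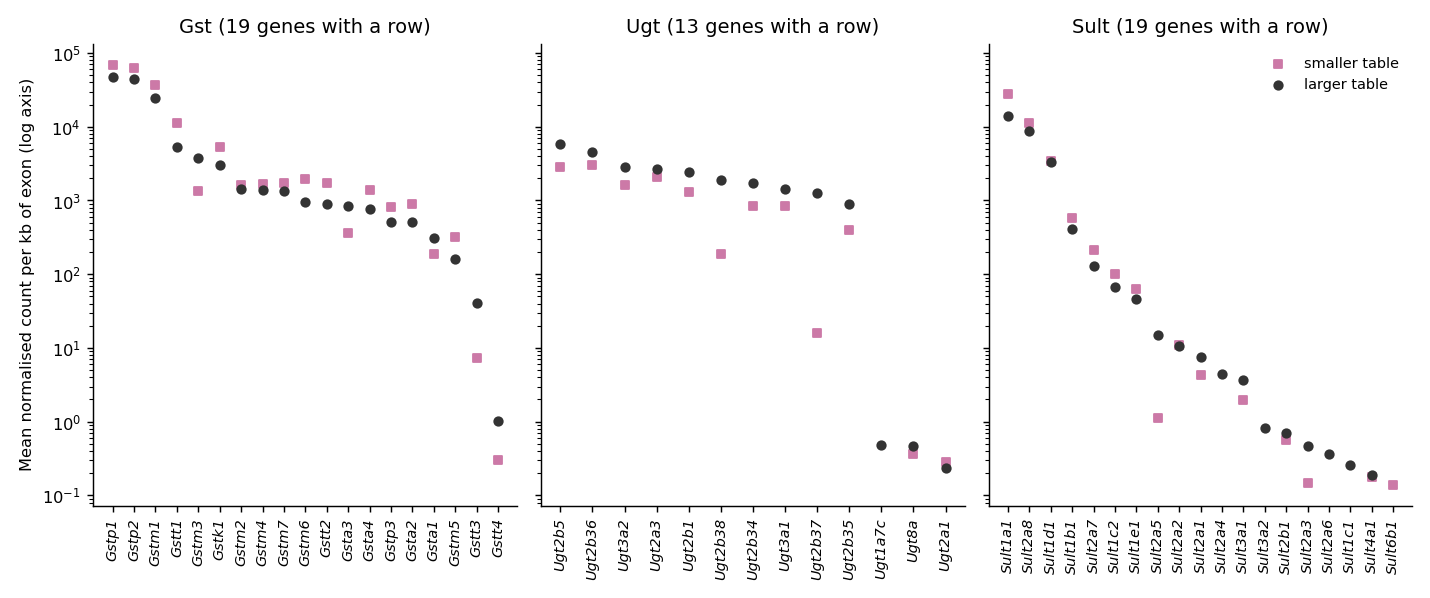
Mean normalised count per kilobase of exon (log axis) of every Gst, Ugt and Sult gene with a row, over both genotypes, in the smaller table (squares) and the larger table (circles). Levels in each family fall over several orders of magnitude down to untested genes with few reads. The 10 tested Ugt genes lie close together in the larger table, and Ugt2b37 and Ugt2b38 lie far lower in the smaller one.

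Gstt1 was the only phase II gene called. It was lower in Cpeb4 KO livers in each table. It encodes a theta-class glutathione transferase that acts on small halogenated molecules and epoxides. Its log2 fold change was -0.44 ± 0.11 in the smaller and -0.38 ± 0.08 in the larger of the authors' deposited tables (SE, adjusted p = 0.0232 and 0.00216). On a linear scale that is a change of -26.3% and -23.1%. Its mean was 17410 and 8200 normalised counts in the deposited tables. The calls made 1 of 33 and 1 of 35 tested phase II genes. Over all genes tested in the deposited tables, 0.266% (31 of 11661) and 0.296% (42 of 14180) were called, and 0.103% and 0.205% were called lower. With a single gene called, the share over the families rests on Gstt1 alone.

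Gstt1 (ENSMUSG00000001663) lies on the minus strand of chromosome 10, at 75783813 to 75798584 of GRCm38, in a cluster with the other 3 theta-class genes. The cluster spans 63.3 kb, from 75774115 to 75837424, and no other annotated gene overlaps Gstt1. Of its 31-base words, 0.468% also occurred in another gene's transcripts. Gstt2, at 75831114 to 75837424, had -0.18 ± 0.12 and -0.06 ± 0.10 in the smaller and larger deposited tables and was not called. Gstt3, at 75774115 to 75781414, was tested in the larger deposited table alone, at -0.16 ± 0.12. Gstt4 was close to absent, with means of 0.298 and 1.03 normalised counts in the deposited tables. Estimates of the 3 tested cluster genes were thus all below 0, and that of Gstt1 alone exceeded its error enough to be called.

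The erythroid markers lay below 0 beside Gstt1. The 4 globin genes with a row, of 5 markers listed, had log2 fold changes of -0.42 to -0.36 in the smaller and -0.30 to -0.29 in the larger of the authors' deposited tables. Each had an unadjusted p under 0.05, and none was called. Their means summed to 14126 and 11728 normalised counts. Markers of other cells were counted below 0 in the smaller and larger tables, where 49.7% and 50.4% of all genes tested lay. The counts were 6 of 6 and 5 of 6 tested Kupffer, 3 of 4 and 4 of 4 stellate, and 1 of 4 and 2 of 4 endothelial markers. None of these 3 sets held an unadjusted p under 0.05 (Wald test). For hepatocyte markers the counts were 4 of 6 and 3 of 6, and for cholangiocyte markers 2 of 3 and 2 of 3. Of these 2 sets, Ttr alone had an unadjusted p under 0.05 in each table. The part of blood cells in the Gstt1 difference was not tested. In whole tissue, fewer cells of a type and less RNA per cell cannot be told apart.

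No other glutathione transferase was called. Gsta4, the alpha-class enzyme that conjugates the lipid peroxidation product 4-hydroxynonenal, came next, at -0.31 ± 0.13 and -0.28 ± 0.12 in the smaller and larger deposited tables (adjusted p = 0.799 and 0.838). Gsta3, an alpha-class enzyme that detoxifies aflatoxin epoxide in mice, had -0.09 ± 0.14 and -0.23 ± 0.10 in the deposited tables. In the mu class, Gstm1 had -0.19 ± 0.11 and -0.08 ± 0.08, and Gstm5 -0.19 ± 0.13 and -0.16 ± 0.12, in the deposited tables. Neither mu-class estimate passed the threshold. At the other end, Gstp1 had 0.08 ± 0.12 and 0.17 ± 0.11, and Gstp2 0.08 ± 0.12 and 0.17 ± 0.11, in the deposited tables. Gsta2 had 0.07 ± 0.13 and 0.16 ± 0.12, and Gsta1 0.03 ± 0.14 and 0.09 ± 0.12. The kappa-class gene Gstk1, whose product is found in mitochondria and peroxisomes, had 0.05 ± 0.11 and 0.08 ± 0.09. Over the family, 11 of 17 and 11 of 18 tested genes lay below 0 in the deposited tables, with medians of -0.09 and -0.04.

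Gstp1 and Gstp2 cannot be read as independent genes. Of their 31-base words, 38.5% and 60.3% also occurred in another gene. The first 60 coding bases of the 3 pi-class genes follow, where Gstp2 differed from Gstp1 at 6 and Gstp3 at 11. This stretch holds 6 of the 12 differences of Gstp2 in its whole coding sequence, so it understates how near the pair are. Capitals mark bases that differ from Gstp1.
Gstp1: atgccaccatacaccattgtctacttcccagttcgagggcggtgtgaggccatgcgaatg
Gstp2: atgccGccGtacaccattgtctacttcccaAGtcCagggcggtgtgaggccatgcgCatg
Gstp3: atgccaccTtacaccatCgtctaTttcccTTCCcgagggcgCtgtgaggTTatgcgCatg
Gstp2 differed from Gstp1 at 12 of 633 coding bases, an identity of 98.1%, and Gstp3 at 180, an identity of 71.6%. Gstp3, the more distant copy, had -0.15 ± 0.13 and -0.05 ± 0.12 in the smaller and larger deposited tables, on the other side of 0 from the pair. None of the 3 estimates was called.

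**Figure D2:**
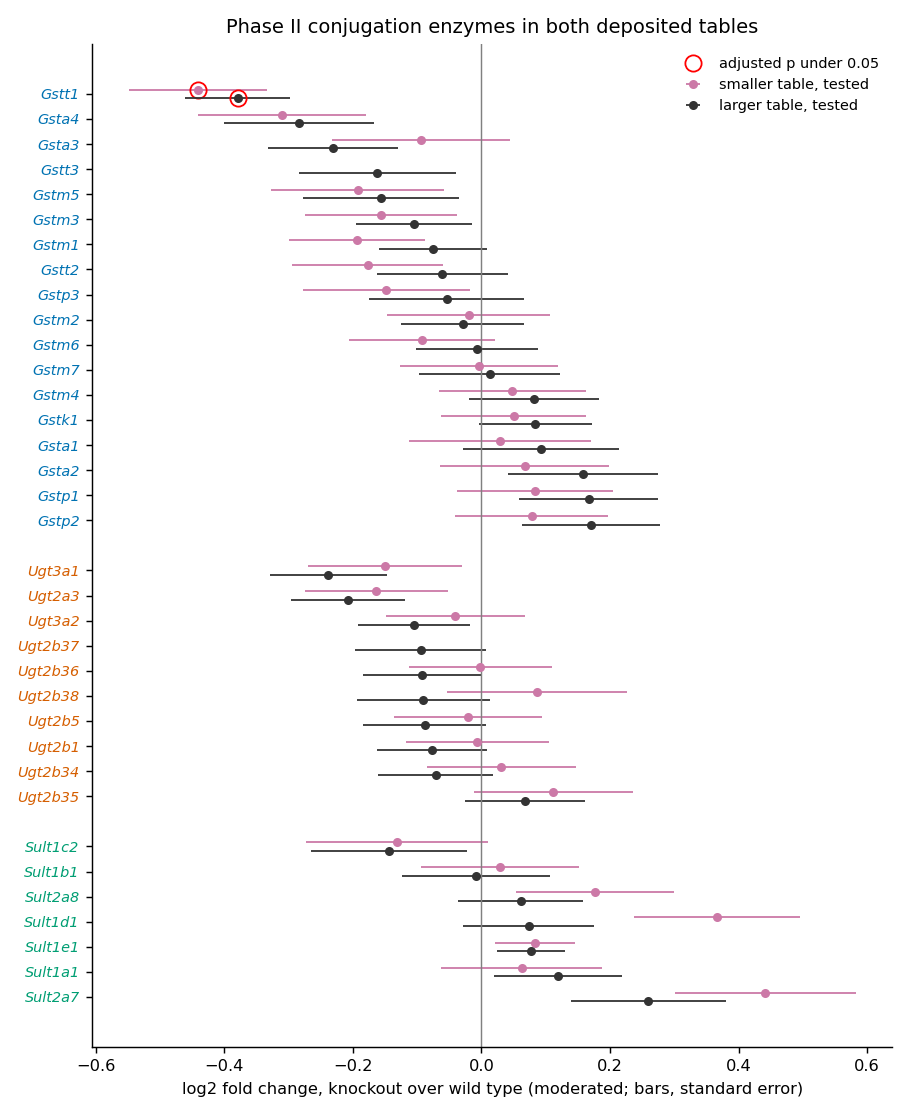
Log2 fold change, knockout over wild type, of every tested Gst, Ugt and Sult gene in the smaller table (upper of each pair) and the larger table (lower), with standard errors as bars and red rings on adjusted p under 0.05. Gstt1 carries the only rings, at -0.44 and -0.38, and Sult2a7 lies highest, at 0.44 and 0.26.

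No glucuronosyltransferase was called in either table, and the lowest adjusted p was 0.999 in the smaller and 0.605 in the larger of the authors' deposited tables. At an unadjusted p under 0.05 there were 0 of 9 in the smaller and 2 of 10 in the larger, Ugt3a1 and Ugt2a3. Ugt3a1, which transfers N-acetylglucosamine, had -0.15 ± 0.12 in the smaller and -0.24 ± 0.09 in the larger deposited table. Ugt2a3, which glucuronidates bile acids in humans, had -0.16 ± 0.11 and -0.21 ± 0.09. Ugt3a2, which uses UDP-glucose or UDP-xylose in humans, had -0.04 ± 0.11 and -0.10 ± 0.09 in the deposited tables.

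The Ugt2b genes, which glucuronidate steroids and xenobiotics, kept close to 0. In the larger deposited table, 6 of 7 lay between -0.09 and -0.07 and Ugt2b35 at 0.07 ± 0.09. In the smaller deposited table, the 6 tested lay between -0.02 and 0.11. Ugt2b5, Ugt2b36, Ugt2b1 and Ugt2b34 had -0.02 ± 0.12, -0.00 ± 0.11, -0.01 ± 0.11 and 0.03 ± 0.12 in the smaller deposited table. In the larger one the same genes had -0.09 ± 0.10, -0.09 ± 0.09, -0.08 ± 0.09 and -0.07 ± 0.09. Each estimate was smaller than its own standard error or close to it. Over the whole family, 6 of 9 and 9 of 10 tested genes lay below 0, with medians of -0.01 and -0.09.

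No sulfotransferase was called either, with a lowest adjusted p of 0.277 in the smaller deposited table. Most estimates of the family lay above 0. In the authors' deposited tables, 6 of 7 tested genes in the smaller and 5 of 7 in the larger were above 0, with medians of 0.08 and 0.07. The highest was Sult2a7, a member of the hydroxysteroid sulfotransferase group, at 0.44 ± 0.14 and 0.26 ± 0.12 (adjusted p = 0.277 in the smaller table), with means of 269 and 163 normalised counts. Sult1d1 had 0.37 ± 0.13 and 0.07 ± 0.10 in the deposited tables (adjusted p = 0.464 in the smaller). Sult2a8 had 0.18 ± 0.12 and 0.06 ± 0.10, and Sult1a1 0.06 ± 0.12 and 0.12 ± 0.10. Sult1b1, which sulfates thyroid hormones, had 0.03 ± 0.12 and -0.01 ± 0.12 in the deposited tables, and Sult1c2 -0.13 ± 0.14 and -0.14 ± 0.12.

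Sult1e1, the estrogen sulfotransferase, had 0.08 ± 0.06 and 0.08 ± 0.05 in the smaller and larger deposited tables. Its standard errors were low for its means of 79.2 and 56.4 normalised counts. Genes within a factor of 2 of its mean had median standard errors of 0.136 and 0.108, and 18 of 2572 and 11 of 2581 of them had a lower one. In a moderated fit, a standard error that is low for the mean count goes with a strong pull towards 0. The 12 sulfotransferases tested in neither table included the Sult2a genes other than Sult2a7 and Sult2a8, at means of at most 15.6 normalised counts.

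Set side by side, the medians were -0.09, -0.01 and 0.08 for Gst, Ugt and Sult in the smaller deposited table and -0.04, -0.09 and 0.07 in the larger. Over all genes tested they were 0.00 and -0.00, with 49.7% and 50.4% below 0. At an unadjusted p under 0.05, the deposited tables held 4 of 33 and 6 of 35 phase II genes (12.1% and 17.1%), against 4.11% and 3.62% of all genes tested. By family these were 2 and 3 Gst, 0 and 2 Ugt and 2 and 1 Sult genes. Among the Cyp2 and Cyp3 families of phase I enzymes, 8 of 40 and 10 of 44 tested genes had such a p. These shares were larger still, so a share above that of all genes was not particular to phase II genes. The labels do not say whether both tables rest on the same animals, so a side of 0 shared by both is no independent support.

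**Figure D3:**
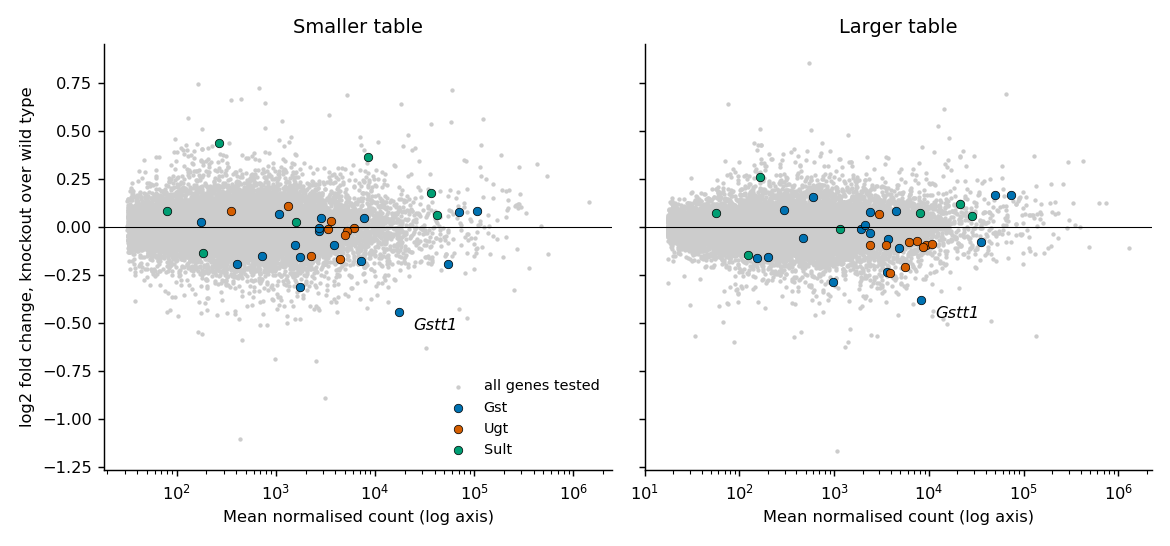
Log2 fold change, knockout over wild type, against mean normalised count (log axis) for all genes tested in the smaller table (left) and the larger table (right), with Gst in blue, Ugt in orange and Sult in green. Gstt1, at -0.44 and -0.38, is the phase II gene farthest below 0 in each panel, and the Ugt genes run from -0.24 (Ugt3a1) to 0.07 (Ugt2b35) in the larger table.

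The fold changes of the 33 genes tested in both tables were compared by a two-sided z test of the difference, smaller minus larger, run over 11604 genes. No phase II gene was called and none had an unadjusted p under 0.05. Over all genes, 2 (0.0172%) were called and 16 (0.138%) had an unadjusted p under 0.05. The largest difference was that of Sult1d1, at 0.29 ± 0.16 (SE). The difference lay above 0 for 2 of 17 Gst, 9 of 9 Ugt and 6 of 7 Sult genes, against 51.3% of all genes. Their median differences were -0.06, 0.07 and 0.04. The z values had an SD of 0.535 over all genes, below that of the normal curve behind the p-values, so these p-values ran high. With z divided by that SD, 0 phase II genes and 10 genes in all were called. In that scaled z test 1 phase II gene had an unadjusted p under 0.05. This was Sult1d1, at 0.000885, with the lowest adjusted p of the phase II genes, 0.331.

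The mean level of the 3 families between the tables is given as a description, with no test. The measure was the ratio of the mean normalised count, genotypes pooled, in the smaller deposited table to that in the larger. The tables were normalised separately, so a ratio is read against the median of all genes, 0.771 over 13968 genes. The median ratio was 1.49 over 18 Gst genes, 0.518 over 10 Ugt genes and 1.40 over 7 Sult genes. All 7 Sult genes lay above the median of all genes, and 9 of 10 Ugt genes lay below it, with Ugt2a3 just above at 0.787. Of the 18 Gst genes, 14 lay above the median of all genes, with Gstt1 highest at 2.12. The 4 others were Gsta1, Gsta3, Gstm3 and Gstt3. The 44 tested genes of the Cyp2 and Cyp3 families, phase I enzymes of the reticulum membrane, had a median of 0.517, close to that of the Ugt genes.

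**Figure D4:**
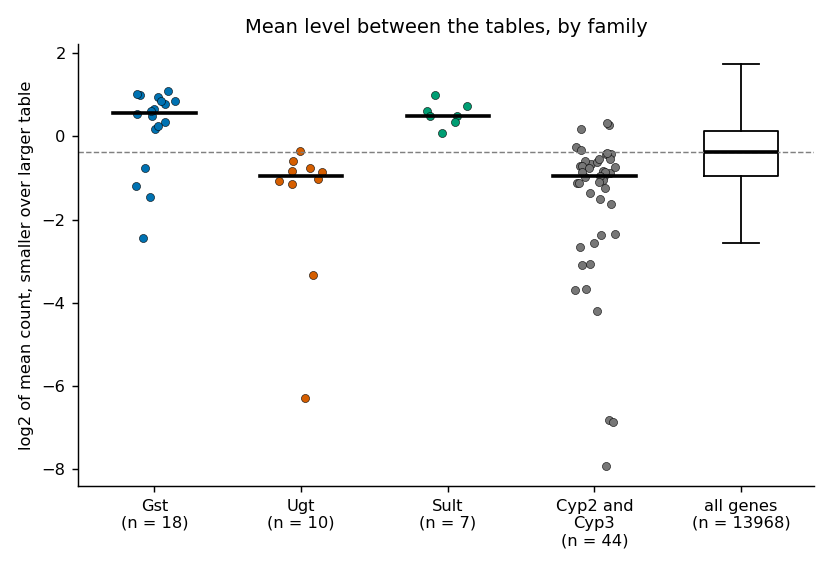
Log2 ratio of the mean normalised count in the smaller table to that in the larger, for each tested Gst, Ugt, Sult, and Cyp2 or Cyp3 gene (points, with medians as bars) and all genes (box, median and quartiles; dashed line, median). Gst and Sult medians lie above the dashed line, and those of Ugt and of Cyp2 and Cyp3 lie below it.

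Transcript length moved with this ratio. Protein-coding genes of 0.5 to 1.5 kb of exon had a median ratio of 1.40, those of 1.5 to 3 kb 1.01, those of 3 to 6 kb 0.804 and longer ones 0.695. Median exon lengths were 1.5 kb for Gst, 2.35 kb for Ugt and 1.85 kb for Sult. The Gst genes ran from 0.908 to 4.34 kb, the Ugt genes from 1.86 to 4.31 kb and the Sult genes from 1.24 to 3.28 kb. Their median ratios were 1.49, 0.518 and 1.40, to be read beside those of the length ranges above. The part of length in the family difference was not tested.

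Ugt2b37 and Ugt2b38 stood apart from the rest of their family. Ugt2b37 had a mean of 30.7 normalised counts in the smaller and 2402 in the larger deposited table, a ratio of 0.0128. Ugt2b38 had 356 and 3563, a ratio of 0.0999. Ugt2b5, their near copy, had 5248 and 10767. The coding sequences of Ugt2b37 and Ugt2b38 were 94.7% and 97.0% identical to that of Ugt2b5 over 1593 bases. Of their 31-base words, 34.4% and 52.9% were shared with other genes, and 56.4% in Ugt2b5. The sources used here do not say how reads were divided among such copies, and the part of that step in these ratios was not tested. Without the genes that shared over 25% of their words, the median ratio was 0.565 over 7 Ugt genes and 1.64 over 12 Gst genes.

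Cpeb proteins are known to bind the cytoplasmic polyadenylation element, here searched as TTTTAT or TTTTAAT on the transcript's strand in the annotated 3′ UTR. Of the genes tested in the larger table, 2 of 18 Gst (11.1%), 9 of 10 Ugt and 4 of 6 Sult genes (66.7%) held a match. Sult2a7 had no annotated 3′ UTR in the transcript used. Over all tested protein-coding genes the share was 58.9% of 11663. The families also differ in what such a match depends on. Their median 3′ UTR was 198 bases in Gst, 513.5 in Ugt and 693 in Sult genes, with 52.4%, 66.7% and 66.4% A or T. Among all genes with a 3′ UTR of 100 to 600 bases, 30.5% of 3622 held a match.

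Gstt1, the gene called in both tables, had no match in its 226-base 3′ UTR. Gstt2 had 3 and Gstt3 had 1. The windows below set the polyadenylation signal of Gstt1 beside an element of each of its 2 neighbours, and capitals mark the signal or the element.
Gstt1: ttgagtctgggtAATAAActggggcttgat
Gstt2: tagacatctgtgTTTTATtataataaagag
Gstt3: ccataagacgtcTTTTATgtgccttaccta
Of the 10 Ugt genes, Ugt2b5 alone had no match. The aligned windows of its near copies show the 7 bases concerned in capitals.
Ugt2b5: acttgattcttTTCTAATaaaggcacatct
Ugt2b37: atttgattcttTTTTAATcaaggcacatct
Ugt2b38: atttgatttttTTTTAATcaaggcagatct
Over 30 bases, Ugt2b5 differed from Ugt2b38 at 5 positions and Ugt2b37 at 2. Sult1d1 held 6 matches, the most of the Sult genes, 1 of them in the window below.
Sult1d1: tgtcttactatTTTTAATttttttctaaag
In the deposited tables, phase II genes with a match had a median log2 fold change of -0.00 in the smaller and -0.09 in the larger, and those without had -0.02 and -0.01. These sets differ in family. In the larger table, 9 of the 15 genes with a match were Ugt, and 16 of the 19 without were Gst. By family, the medians there with and without a match were -0.11 (2 genes) and -0.02 (16) in Gst. They were -0.09 (9) and -0.09 (1) in Ugt, and 0.07 (4) and 0.06 (2) in Sult. Over all tested protein-coding genes they were -0.01 and -0.01 in the larger table, and 0.02 and -0.04 in the smaller. A match is a run of letters and was not shown to be bound.

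**Figure D5:**
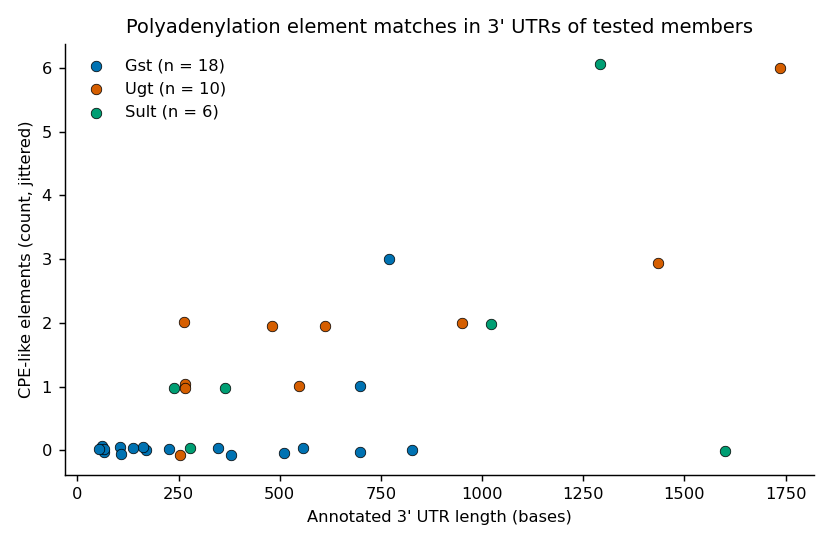
Number of cytoplasmic polyadenylation element matches (jittered) against annotated 3′ UTR length in bases, for tested Gst, Ugt and Sult genes. Among the Gst genes, 2 of 18 have a match, while 9 of 10 Ugt genes and 4 of 6 Sult genes do.

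Genes listed for the supply of the 3 conjugating groups were mostly not called. These lists also hold genes of use or breakdown, such as Chac1 and Gusb. For glutathione supply, 1 of 8 tested genes in the smaller and 0 of 11 in the larger deposited table passed. Cth, which makes cysteine, was higher in the knockout at 0.55 in the smaller deposited table (adjusted p = 0.0191) and had 0.23 in the larger. Of all genes tested, 0.163% and 0.0917% were called higher. For UDP-glucuronic acid supply, 0 of 6 and 0 of 7 passed, and Ugdh, which makes the donor, had 0.28 ± 0.11 and 0.22 ± 0.08 (adjusted p = 0.606 and 0.595). For PAPS supply, 0 of 8 and 0 of 8 passed, with Papss2, the hepatic PAPS synthase, at 0.06 and 0.05 in the deposited tables.

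The receptors that are known to induce phase II genes were not called, at 0 of 12 in each deposited table. Nr1i3, the receptor CAR, had 0.01 and 0.06, Ahr 0.08 and 0.01, and Nfe2l2, which encodes NRF2, -0.02 and -0.08. Of the listed NRF2 targets, 0 of 11 and 0 of 13 passed. Of the CAR targets, 0 of 12 and 1 of 13 passed, against 0.266% and 0.296% of all genes tested. That gene was Cyp2c29, with -0.38 in the smaller deposited table (adjusted p = 0.253) and lower in the knockout at -0.44 in the larger (adjusted p = 0.0248). Of the microsomal transferases of another fold, 0 of 2 and 0 of 4 passed. Among other conjugating enzymes, 1 of 12 passed in each, and this was Inmt, an amine N-methyltransferase, at -0.63 and -0.50 in the deposited tables, against 0.103% and 0.205% of all genes called lower. Of the efflux transporters for conjugates, 0 of 6 and 0 of 9 passed.

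Hepatocyte markers had summed means of 1085234 and 2258099 normalised counts over 6 genes in the smaller and larger deposited tables. Cholangiocyte markers summed to 292 and 365 over 6 genes. No listed marker of hepatocytes, cholangiocytes, Kupffer, endothelial, stellate or erythroid cells was called in the deposited tables. Kupffer markers had medians of -0.08 and -0.08, and stellate markers -0.12 and -0.11. The deposited means summed to 36848665 and 37351703 normalised counts over all genes.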

How the data were processed

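The deposited files are 2 tables of DESeq2 results, per the file headers. Each gives a mean count over all libraries after normalisation (signal scale), a log2 fold change and the standard error of it, a Wald statistic (a score), a p-value and an adjusted p-value per Ensembl gene, all made by the authors. The submitters' processing notes name STAR 2.3.0e, DESeq2 1.6.3 and mm10, without their roles. How reads were counted, and against which annotation, is not given in these sources.

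Depth per library is unknown. Low means in each table were whole combinations of 4 single-read steps, 2 with negative and 2 with positive fold changes, for 4801 of 4801 genes in the smaller and 5177 of 5177 in the larger table with a mean under 2 (tolerance 1e-06). The implied size factors ran from 0.839 to 1.64 and from 0.717 to 1.26. Nothing says that replicates came from separate animals, so p-values may measure technical spread.

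Symbols, coordinates, exon lengths and 3′ UTRs came from GENCODE M21 (GRCm38), which matched 21080 and 23484 IDs. The authors' fold changes and adjusted p-values were used as deposited, and no count model was run. A z test compared the fold changes of the tables, with Benjamini-Hochberg adjustment in Python 3.11.15, pandas 2.3.3, numpy 2.4.6 and scipy 1.17.1. It was tested on simulated data with independent, unmoderated fold changes drawn from the deposited standard errors. The deposited estimates are moderated and their z values spread less, so the simulation does not cover that setting. Sequence shared between genes was measured as the share of 31-base words of a gene's transcripts found in another gene. Alternatives changed the filter on means, the threshold and the genes kept.

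Genes were named by rule: called genes, the 4 highest and 4 lowest fold changes and the 4 highest levels per family and table, the 3 lowest adjusted p-values not called, members of a called gene's cluster and 9 genes of usual hepatic role. Gstm3 and Gstp3 were named after their values were seen. The members and gene lists were chosen with earlier results of these data known.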

Additional observations from a re-analysis of the deposited data

How the results depend on the processing

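Gstt1 was the one phase II gene called in each of the authors' deposited tables under no filter on the mean, a mean of at least 100, a threshold of 0.1, and without genes sharing over 25% of their words. Of 146 alternative values, 110 were for single genes and re-adjusted the p alone, so no fold change could turn in them. A threshold of 0.1 could not end a call, and Gstt1 shares too few words to be left out. Only the filters on the mean could have ended its call. Its adjusted p (Wald test, Benjamini-Hochberg) was 0.0386 and 0.00361 with no filter in the smaller and larger table. At a mean of at least 100 it was 0.0192 and 0.00199. The Gst medians without Gstt1, an alternative added after seeing the data, were -0.06 in the smaller and -0.03 in the larger table. With every gene that has a p-value, the Sult medians were 0.01 over 15 genes and 0.00 over 18, and the Ugt median of the smaller table was 0.00 over 12 genes in place of -0.01. The genes so added have few reads, and their moderated values lie near 0. The median ratios of mean counts between tables, recomputed without genes sharing sequence or at a mean of at least 100, stayed within 1.5 times (also added after seeing the data). Leaving out a library could not be run, since the tables hold no value per library. No paired analysis was possible because the tables hold no value per library, although knockout and wild-type labels share replicate numbers. The authors gave no adjusted p to 16 genes with a row, whose means were at most 15.6.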
